A study of Mus musculus with 12 samples.

Results

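The 8 cytosolic heat shock protein genes described here were the inducible HSP70 genes Hspa1a and Hspa1b, the constitutive HSP70 gene Hspa8, the HSP70 helpers Dnajb1 and Hsph1, the HSP90 genes Hsp90aa1 and Hsp90ab1, and the small heat shock protein gene Hspb1. They were taken from the tables by a list of gene IDs, and are 8 of the 56748 genes in the deposited tables. All 8 were among the 14338 genes with enough reads to be tested. RNA was sequenced from mesenchymal stem cells of mouse adipose tissue, that is, stromal cells grown out of fat. The 4 groups were cells in flat culture (2D) and cells in rounded aggregates called spheroids (3D), each at 0 h and at 24 h, with 3 libraries per group and 12 in all. According to the protocols in the labels, all groups were kept in DMEM with serum and antibiotics, and no heat or drug treatment is named. The labels give no mouse strain or age, do not say how long spheroids had been forming at 0 h, and do not say whether the 3 libraries of a group came from separate cultures. The p-values therefore rest on the spread among these libraries, and that spread may be technical. The stated question was which genes differ between 2D and 3D culture.

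Library totals lay between 10182600 and 17109600 expected counts, and no 2 libraries of a group agreed within sampling noise. Names were known only for the 8 genes, so the labelled cell type was not checked here against marker genes, and other chaperone genes were not analysed here. These were bulk libraries, in which fewer cells with a transcript and less of that transcript per cell cannot be told apart.

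Heat shock proteins are chaperones that hold unfolded proteins, help them fold or pass them on for degradation. HSP70 binds short stretches of unfolded protein in a cycle driven by ATP, which DNAJ proteins such as Dnajb1 start and exchange factors such as Hsph1 reset, and HSP90 takes over clients such as kinases and steroid receptors at a later stage of folding. In unstressed cells the transcription factor HSF1 is held inactive, and under proteotoxic stress it binds heat shock elements, made of GAA and TTC units, and switches on the inducible genes, while Hspa8 and Hsp90ab1 are expressed at high levels in most cells without stress.

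The sequences before 4 of the genes are shown because Hspa1a and Hspa1b are near-identical copies whose values differed below, and because Hspb1 and Hsph1 moved in opposite directions between 0 h and 24 h. Each is the 250 bases before a start site in the RefSeq annotation of build GRCm38.p6, which is older than the build GRCm39 behind the expression values, printed 5′ to 3′ on the strand of the gene. Capitals mark matches to a pair of heat shock units, GAANNTTC or TTCNNGAA, where N is any base. The windows are chr17:34972157-34972406 on the minus strand for Hspa1a, chr17:34959239-34959488 on the minus strand for Hspa1b, chr5:135887669-135887918 on the plus strand for Hspb1 and chr5:149636337-149636586 on the minus strand for the first of 2 starts of Hsph1.
Hspa1a: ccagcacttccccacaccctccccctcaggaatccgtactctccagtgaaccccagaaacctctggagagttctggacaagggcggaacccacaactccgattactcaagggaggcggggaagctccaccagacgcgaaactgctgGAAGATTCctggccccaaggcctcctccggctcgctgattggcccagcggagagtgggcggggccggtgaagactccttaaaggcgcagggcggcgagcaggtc
Hspa1b: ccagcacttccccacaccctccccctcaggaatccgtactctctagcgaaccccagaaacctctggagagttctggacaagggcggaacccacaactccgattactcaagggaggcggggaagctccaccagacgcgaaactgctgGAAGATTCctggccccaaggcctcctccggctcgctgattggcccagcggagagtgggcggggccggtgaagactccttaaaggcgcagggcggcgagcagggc
Hspb1: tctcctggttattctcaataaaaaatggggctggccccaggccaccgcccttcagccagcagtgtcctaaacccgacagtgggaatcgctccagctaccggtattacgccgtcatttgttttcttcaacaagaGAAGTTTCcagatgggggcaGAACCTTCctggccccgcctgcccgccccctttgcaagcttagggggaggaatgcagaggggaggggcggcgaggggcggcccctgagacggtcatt
Hsph1: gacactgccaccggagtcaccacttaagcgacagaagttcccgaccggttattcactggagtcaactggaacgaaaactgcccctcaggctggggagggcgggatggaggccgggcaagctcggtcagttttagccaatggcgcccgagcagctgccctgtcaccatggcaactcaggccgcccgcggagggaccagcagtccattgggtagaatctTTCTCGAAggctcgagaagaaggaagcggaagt

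Hspa1a and Hspa1b lie next to each other on chromosome 17, and their windows from 250 bases before to 50 bases after the start were identical at 296 of 300 positions, with 3 of the 4 differences before the start. Counting the start as +1 and the base before it as -1, both held 1 match, GAAGATTC, at -104 to -97. Hspb1 on chromosome 5 held GAAGTTTC at -117 to -110 and GAACCTTC at -97 to -90. Hsph1, also on chromosome 5, held TTCTCGAA at -33 to -26, and past its start a match to 3 units in a row, TTCTGGAAAGTTC, at +37 to +49. Neither of the 2 listed starts of Dnajb1 on chromosome 8 had a match in its window. RefSeq windows were in hand for 5 of the 8 genes, and Hspa8, Hsp90aa1 and Hsp90ab1 were not among them. Searched on both strands, GAANNTTC occurred in 7.86% of 32851 windows of this length over all genes, TTCNNGAA in 8.52%, either of them in 15.1%, and the run of 3 units, GAANNTTCNNGAA or its reverse complement, which overlaps the pairs, in 0.603%. A match describes the letters of the window and does not show that HSF1 was bound, and a window without one says nothing about the factor.

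**Figure D1:**
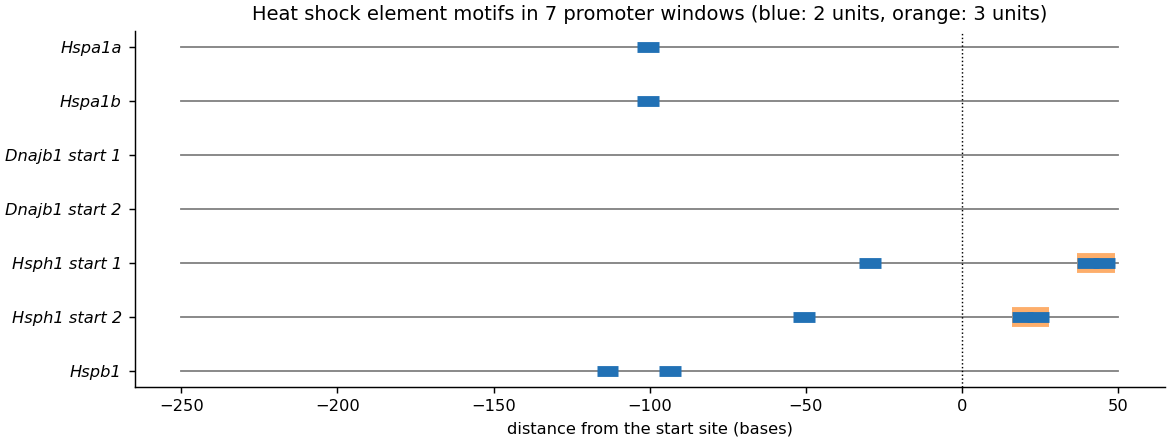
Matches to heat shock units in the promoter windows of the 5 genes with a RefSeq sequence, as distance in bases from the start site (dotted line), with blue bars for pairs of units and orange bars for 3 units in a row. Hspa1a and Hspa1b share 1 pair at -104 to -97, Hspb1 has 2 pairs, both starts of Hsph1 have a pair before the start and a run of 3 units after it, and Dnajb1 has none.

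In these cells the 8 genes did not move as 1 block. In 3D spheroids at 0 h, Hspa8, Hspa1b, Hspb1 and Hsph1 were lower than in 2D cells and Hspa1a was higher. After 24 h the spheroids had lower Hspa1a, Hspa1b, Hspb1, Hsp90aa1, Hsp90ab1 and Hsph1 than 2D cells, while the Hspa8 levels of the cultures overlapped. Within the spheroids, Hspa8 and Hsph1 rose between 0 h and 24 h and Hspa1a, Hspa1b, Hspb1, Hsp90ab1 and Dnajb1 fell. Calls are from edgeR's quasi-likelihood test on the counts, at an adjusted p (Benjamini-Hochberg, over all genes tested) under 0.05. Of the 23 calls in the 4 comparisons of 2 groups, 16 held under every other setting and without any 1 library. Among the calls named here, those that did not were Hspa1a at 0 h, Hsph1 at 0 h and at 24 h, and the fall of Dnajb1 in spheroids. Fold changes are given on the log2 scale with their standard errors.

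**Figure D2:**
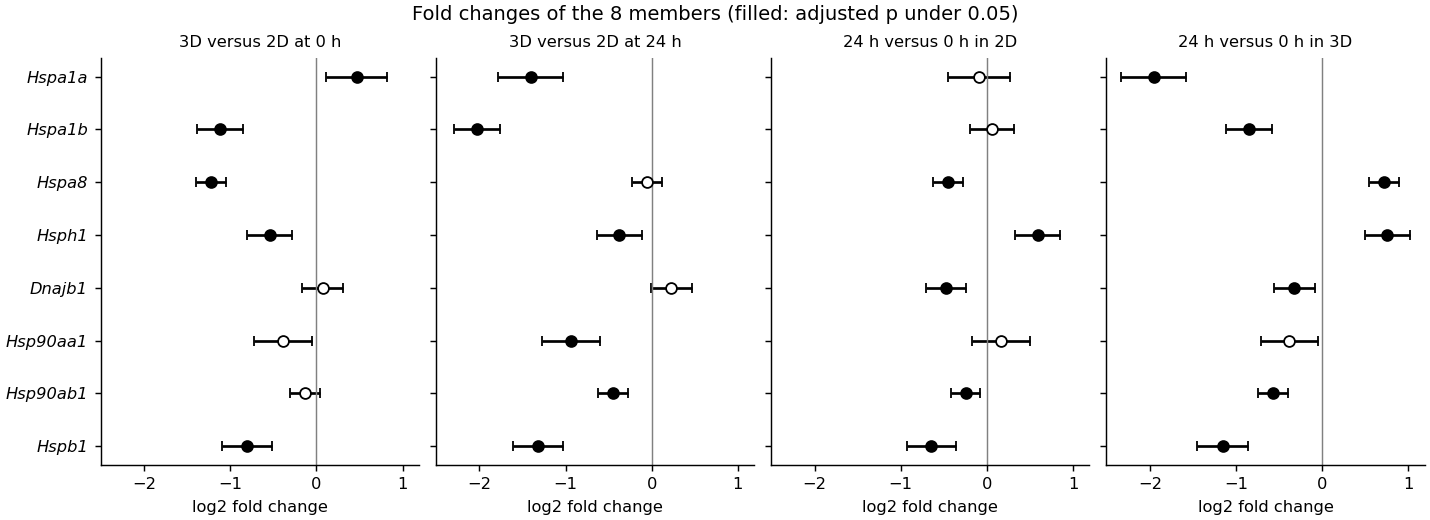
Fitted log2 fold change of each gene in the 4 comparisons of 2 groups of 3 libraries, with bars for 95% confidence intervals and filled points for an adjusted p under 0.05. Hspa1a lies above 0 for 3D against 2D at 0 h (0.47) and below it at 24 h (-1.40), and Hspa8 and Hsph1 are the points above 0 with an adjusted p under 0.05 for time in 3D.

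Calls were frequent among all genes, so the members' counts are given against that background. For 3D against 2D at 0 h, 1 of 8 was higher and 4 were lower, where 23.1% of all genes tested were called higher and 22.7% lower. For 3D against 2D at 24 h, 0 of 8 were higher and 6 lower, against 19.6% and 22.8% of all genes. The 0 stood also at an unadjusted p under 0.05 and with DESeq2, while scaling by library totals or by upper quartiles called 1, Dnajb1. For 24 h against 0 h in 2D, 1 was higher and 4 were lower, against 17.4% and 17.0%. For 24 h against 0 h in 3D, 2 were higher and 5 lower, against 23.8% and 24.7%. The difference between the culture changes at 24 h and 0 h was called positive for 1 gene and negative for 4, against 18.7% and 20.5%.

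The median log2 fold change of the 8 genes was -0.47 for 3D against 2D at 0 h, where that of all genes tested was 0.02. At 24 h the medians were -0.69 for the 8 genes and -0.0018 for all genes. Over time they were -0.17 and 0.02 in 2D, and -0.47 and -0.0043 in 3D. A level more than 2-fold lower was seen for 2 of the 8 in 3D at 0 h, for 3 in 3D at 24 h, for 0 over time in 2D and for 2 over time in 3D. Each of these was also called at an adjusted p under 0.05, and 0 of the 8 were more than 2-fold higher in any of these comparisons. The share of all genes tested that passed the 2-fold cutoff was not worked out, so the 2-fold counts have no background to be read against. The difference between the culture changes had medians of -0.42 and -0.02. These counts and medians describe the list and carry no test.

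Per length, Hspa8 gave the most RNA of the 8 in every group, and Hspa1a gave the least except in 3D at 0 h, where Hsph1 did. The deposited values were turned back to TPM, a measure scaled for gene length and library size. In 2D, Hspa8 stood at 1926 ± 104 TPM (SD, n = 3) at 0 h and 1662 ± 77.7 TPM at 24 h, where it ranked 56 and 65 by mean among all genes. In 3D it stood at 899 ± 39.9 TPM at 0 h and 1647 ± 34.1 TPM at 24 h, with ranks 159 and 62. Hspb1 was the next in 2D at 0 h, with 1032 ± 59.0 TPM and rank 126, but the fourth of the 8 in 3D at 24 h, with 327 ± 26.8 TPM and rank 558. Hsp90ab1 was lowest in 3D at 24 h, with 651 ± 10.8 TPM, and had means of 868 to 897 TPM in the other groups. Hsp90aa1 was lowest in 3D at 24 h as well, with 426 ± 29.1 TPM, and had its highest mean, 688 ± 47.0 TPM, in 2D at 24 h. The other 4 had means of 5.91 to 103 TPM. Over the 12 libraries, the highest TPM was 4.67 times the lowest for Hspa1b and 4.30 times for Hspa1a, but 1.44 times for Hsp90ab1 and 1.51 times for Dnajb1.

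Summed, the 8 genes made up less of the RNA in spheroids than in flat culture at both times. Their share of all TPM in 2D was 0.463% ± 0.0118 (SD, n = 3) at 0 h and 0.419% ± 0.0033 at 24 h. In 3D the share was 0.307% ± 0.0039 at 0 h and 0.316% ± 0.0026 at 24 h. The lowest 2D library stood at 0.416% and the highest 3D library at 0.319%, so the cultures did not overlap. The make-up of this sum differed too: Hspa8 gave 29.3% ± 1.09 of it at 0 h and 52.1% ± 0.985 at 24 h in 3D, against 41.6% ± 2.28 and 39.7% ± 1.93 in 2D. Hspb1 gave 22.3% ± 0.827 in 2D at 0 h, while in 3D at 24 h it gave 10.4% ± 0.90. Hsp90ab1 gave 29.0% ± 1.31 in 3D at 0 h, close to the part of Hspa8 there, and 19.4% ± 0.694 to 20.7% ± 0.245 in the other groups. These shares are descriptions, and no test was run on them.

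**Figure D3:**
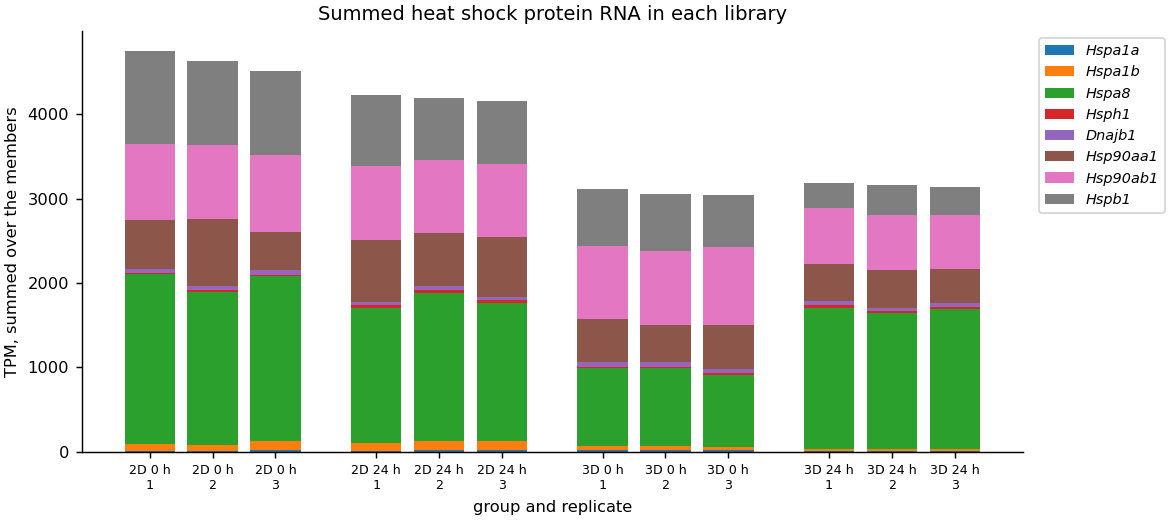
Summed TPM of the 8 genes in each of the 12 libraries, as stacked bars from 0 with 1 colour per gene. The 6 spheroid libraries have shorter bars than the 6 flat ones, and the Hspa8 part is smallest in the 3D libraries at 0 h and makes up 51.0% to 52.8% of the bars at 24 h.

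For 3D against 2D at 24 h, the inducible HSP70 pair had the most negative fold changes of the 8, with Hspa1a (-1.40) close to Hspb1 (-1.32). Over time in 3D this order did not hold, since Hspb1 (-1.16) was below Hspa1b (-0.85). Both genes of the pair encode the HSP70 protein that is made on stress. Hspa1b (ENSMUSG00000090877), the more abundant copy, stood at 159.7, 138 and 185 normalised CPM (counts brought to a common library size by TMM scaling) in the 2D libraries at 0 h and at 86.3, 69.5 and 67.1 in the 3D libraries at 0 h. At 24 h it stood at 162, 169.7 and 172 CPM in 2D and at 39.6, 40.0 and 43.9 in 3D. Every 3D library was below every 2D library at both times, and the 24 h spheroids were the lowest group. The log2 fold change of Hspa1b for 3D against 2D was -1.12 ± 0.12 (SE, edgeR adjusted p = 1.5e-06) at 0 h and -2.03 ± 0.13 (adjusted p = 1.1e-09) at 24 h, that is, 2.17-fold and 4.07-fold lower. Hspa1b fell by 0.85 ± 0.13 on the log2 scale between 0 h and 24 h in 3D (adjusted p = 3.2e-05). In 2D its change over time was 0.06 (95% confidence interval -0.20 to 0.32), which did not pass the threshold (adjusted p = 0.74).

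The other copy, Hspa1a (ENSMUSG00000091971), went the other way at 0 h. It stood at 23.0, 25.9 and 36.6 CPM in 2D and at 38.1, 44.1 and 36.2 CPM in 3D at 0 h, where the highest 2D library lay just above the lowest 3D library. The 24 h libraries gave 24.0, 25.9 and 30.7 CPM in 2D and 8.99, 10.9 and 10.7 CPM in 3D, with no overlap. Hspa1a thus had its highest mean in spheroids at 0 h and its lowest in spheroids at 24 h, and the 2D groups lay between and overlapped each other. Its log2 fold change for 3D against 2D was 0.47 ± 0.17 at 0 h (edgeR adjusted p = 0.032) and -1.40 ± 0.18 at 24 h (adjusted p = 6.4e-06). Within spheroids it fell by 1.96 ± 0.18 between 0 h and 24 h (adjusted p = 1.3e-07), or 3.88-fold, and in 2D the change was -0.09 (95% confidence interval -0.45 to 0.27, adjusted p = 0.73).

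The higher Hspa1a at 0 h was the least secure call of the pair: it was lost without replicate 1 or 2 of 2D at 0 h, without replicate 1 or 2 of 3D at 0 h, and without replicate 3 of 3D at 24 h, with adjusted p from 0.057 to 0.15. It was also lost when the model held only the groups compared (adjusted p = 0.053) and with limma over all genes (0.051), although the fold change stayed positive under each of the 22 alternatives.

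Reads of such near-identical copies can be shared out between them by the counting program, so the split between Hspa1a and Hspa1b is uncertain and their sum is the surer value. The deposited counts were not whole in 10 of 12 libraries for Hspa1a and in 12 of 12 for Hspa1b. In 2D, Hspa1a took 12.6%, 15.8% and 16.5% of the pair's counts at 0 h and 12.9%, 13.2% and 15.2% at 24 h. In 3D it took 30.6%, 38.8% and 35.0% at 0 h and 18.5%, 21.4% and 19.6% at 24 h. Every 3D library had a larger Hspa1a share than every 2D library, most of all at 0 h. Whether the share-out of reads moved with the culture was not tested.

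Summed, the inducible HSP70 pair was lower in spheroids at both times. The sum stood at 183, 164 and 222 CPM in 2D and at 125, 114 and 103 CPM in 3D at 0 h. At 24 h the values were 186, 196 and 202 CPM in 2D and 48.6, 51.0 and 54.6 CPM in 3D. No 3D library reached a 2D library, and the 2D groups overlapped each other. The log2 fold change of the sum was -0.74 ± 0.12 at 0 h (edgeR adjusted p = 7.1e-05) and -1.92 ± 0.12 at 24 h (adjusted p = 1.1e-09), and the difference between them, -1.19 ± 0.17, passed its own test (adjusted p = 2.6e-05). In spheroids the sum fell by 1.15 ± 0.12 between 0 h and 24 h (adjusted p = 6.5e-07), and in 2D the change was 0.04 (95% confidence interval -0.21 to 0.28, adjusted p = 0.83).

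Hspa8 (ENSMUSG00000015656), which encodes the constitutive HSP70 of the cytosol, rose in spheroids between 0 h and 24 h, when the inducible pair fell. It stood at 2839, 2517 and 2571 CPM in 2D and at 1153, 1166 and 1079 CPM in 3D at 0 h. At 24 h it stood at 2031, 1893 and 1867 CPM in 2D and at 1742, 1927 and 1920.0 CPM in 3D. The 2D libraries at 0 h were the highest, the 3D libraries at 0 h the lowest, and the groups at 24 h overlapped in between. Hspa8 was 2.33-fold lower in 3D at 0 h, with a log2 fold change of -1.22 ± 0.08 (edgeR adjusted p = 4.4e-09). At 24 h the value was -0.05, with a 95% confidence interval of -0.23 to 0.12, and did not pass the threshold (adjusted p = 0.66). It took either sign in the alternatives, from -0.08 to 0.04 without 1 library and up to 0.07 when libraries were scaled by their totals.

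Over time, Hspa8 rose by 0.72 ± 0.08 in 3D (adjusted p = 2.2e-06) and fell by 0.45 ± 0.08 in 2D (adjusted p = 0.00063). The difference between the culture changes at 24 h and 0 h was 1.17 ± 0.12 (edgeR adjusted p = 6.5e-07), the only positive one called among the 8. Limma on the deposited TPM values gave -0.21 for the fall in 2D, with an adjusted p of 0.053 on log2(TPM + 1), 0.048 on log2(TPM + 0.1) and 0.081 on log2(TPM + 1) over all genes above 0, so the call was kept in 1 of these 3 settings.

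**Figure D4:**
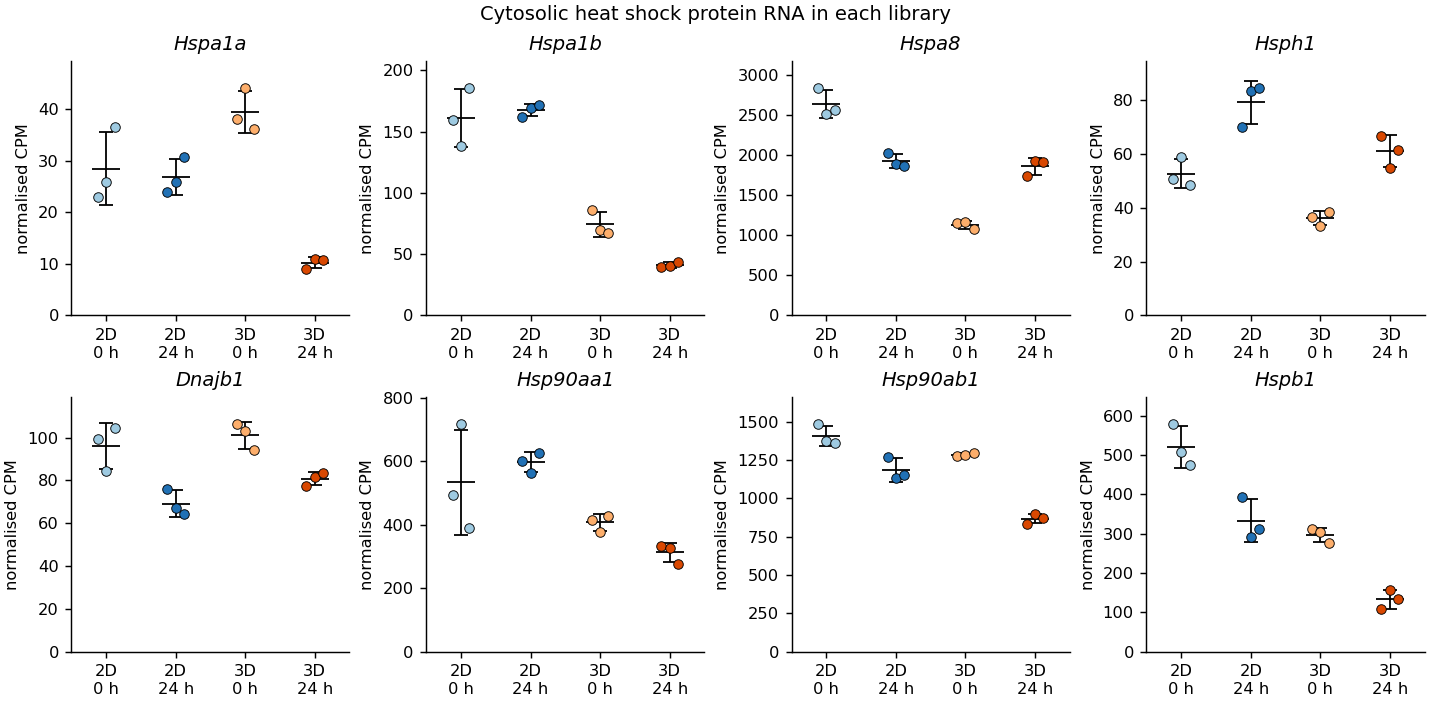
Normalised CPM of each of the 8 genes in the 12 libraries (points), with the mean and SD of the 3 libraries of each group (bars) on axes that start at 0. Hspa8 is lowest in 3D at 0 h, between 1079 and 1166 CPM, while Hspa1a, Hspa1b, Hspb1, Hsp90ab1 and Hsp90aa1 are lowest in 3D at 24 h.

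Within each library, the balance of inducible to constitutive HSP70 separated the spheroids at 24 h from every other group. The log2 ratio of Hspa1a plus Hspa1b to Hspa8, on TPM, was -4.46, -4.42 and -4.00 in 2D at 0 h and -3.94, -3.80 and -3.69 in 2D at 24 h. In 3D it was -3.71, -3.85 and -3.83 at 0 h and -5.72, -5.77 and -5.64 at 24 h. At 24 h the spheroid ratio was 3.73-fold lower than the 2D ratio, a difference of -1.90, and at 0 h it was higher by 0.50. Between 0 h and 24 h it went up by 0.48 in 2D and down by 1.91 in 3D, where the later ratio was 3.77-fold lower. The groups did not overlap in any of these 4 comparisons. Each gave a two-sided exact permutation p of 0.1, the smallest that 3 libraries against 3 can give, and 0.13 after adjustment over the 8 ratio tests, so none could pass the threshold.

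**Figure D5:**
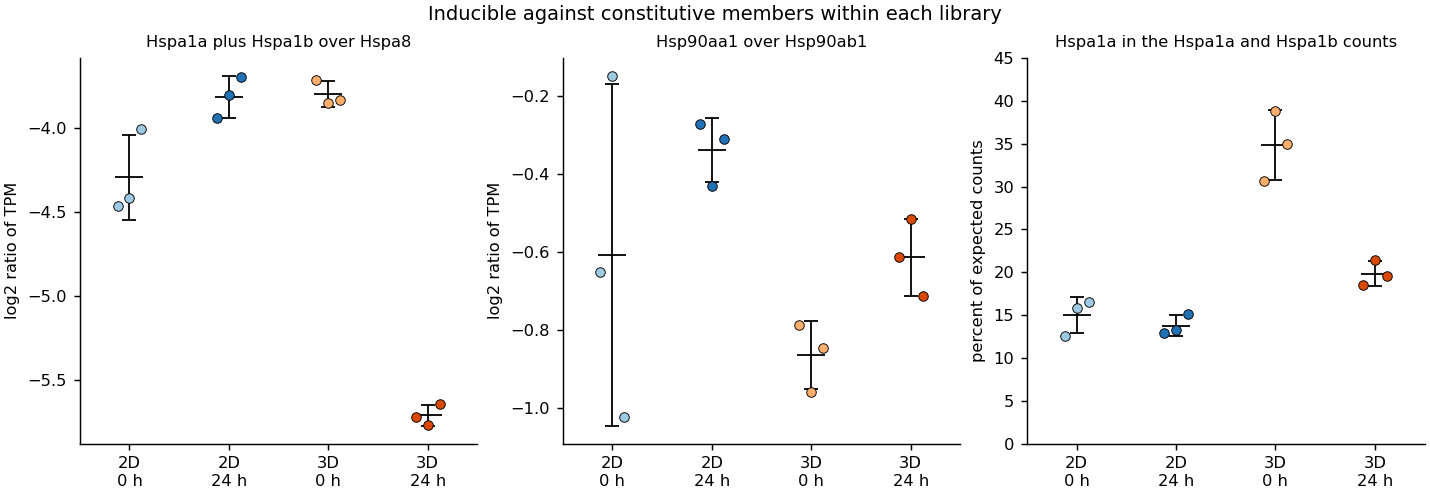
Log2 ratios of TPM within each library for inducible over constitutive HSP70 and HSP90, and the percent of the Hspa1a plus Hspa1b counts given to Hspa1a, with points for libraries and bars for the mean and SD of 3. The HSP70 ratio lies between -5.77 and -5.64 in 3D at 24 h and at -4.46 or above elsewhere, the HSP90 ratio spreads most in 2D at 0 h, and the Hspa1a percent is highest in 3D at 0 h.

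The HSP70 helpers did not move together. Hsph1 (ENSMUSG00000029657), an HSP110 protein that exchanges the nucleotide of HSP70, rose with time in both cultures and was lower in spheroids. It stood at 50.8, 58.8 and 48.6 CPM in 2D and at 36.7, 33.4 and 38.5 CPM in 3D at 0 h. The 24 h libraries gave 69.9, 83.3 and 84.4 CPM in 2D and 66.8, 54.8 and 61.5 CPM in 3D. Both cultures were higher at 24 h than at 0 h, 2D was above 3D at each time, and the only groups to overlap were the 24 h spheroids and the 0 h flat cultures, which were not set against each other.

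Hsph1 rose by 0.59 ± 0.12 in 2D (edgeR adjusted p = 0.0017) and by 0.76 ± 0.13 in 3D (adjusted p = 9.8e-05). The log2 fold change for 3D against 2D was -0.54 ± 0.13 at 0 h (adjusted p = 0.0019) and -0.38 ± 0.12 at 24 h (adjusted p = 0.020). The difference between these was 0.17 (95% confidence interval -0.20 to 0.54, adjusted p = 0.48). The lower level at 24 h was lost without replicate 2 or 3 of 2D at 24 h, replicate 1 of 3D at 0 h, or replicate 2 or 3 of 3D at 24 h (adjusted p from 0.051 to 0.11), and with library totals, upper-quartile scaling, no count filter or limma. On the deposited TPM values, limma called neither culture difference (adjusted p = 0.10 at 0 h and 0.13 at 24 h).

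Dnajb1 (ENSMUSG00000005483), the HSP40 protein that delivers clients to HSP70, fell with time in both cultures. It stood at 99.4, 84.1 and 105 CPM in 2D and at 106, 103 and 94.0 CPM in 3D at 0 h, and these groups overlapped. At 24 h the values were 76.1, 67.1 and 64.1 CPM in 2D and 77.3, 81.6 and 83.4 CPM in 3D, and every 3D library was above every 2D library. Dnajb1 fell by 0.48 ± 0.11 in 2D (edgeR adjusted p = 0.0039) and by 0.32 ± 0.11 in 3D (adjusted p = 0.024). For 3D against 2D, the log2 fold change was 0.07 (95% confidence interval -0.16 to 0.31, adjusted p = 0.62) at 0 h and 0.23 (-0.01 to 0.46, adjusted p = 0.12) at 24 h, and neither passed the threshold.

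With limma on TPM, neither fall of Dnajb1 was called (-0.25 in 2D, adjusted p = 0.11, and -0.23 in 3D, adjusted p = 0.11). The fall in 3D was also lost with library totals (-0.24, adjusted p = 0.068) and with no count filter (adjusted p = 0.062), and was called in 10 of 22 alternatives in all. Single libraries ended it too: it was lost without replicate 1 of 2D at 0 h, replicate 2 of 2D at 24 h, replicate 1 or 2 of 3D at 0 h, or any 1 replicate of 3D at 24 h, with adjusted p from 0.053 to 0.14. The value at 24 h was called higher in 3D without replicate 1 of 2D at 24 h (0.35, adjusted p = 0.035), by library totals (0.35, adjusted p = 0.013) and by upper-quartile scaling (0.29, adjusted p = 0.047).

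Of the HSP90 genes, Hsp90ab1 (ENSMUSG00000023944), the constitutive form, was lower in spheroids at 24 h and had the narrowest range of TPM of the 8. It stood at 1483, 1375 and 1362 CPM in 2D and at 1276, 1287 and 1297 CPM in 3D at 0 h. At 24 h it stood at 1273, 1132 and 1150.2 CPM in 2D and at 835, 896 and 873 CPM in 3D. In CPM, the 3D libraries at 24 h were below all others, and the 2D libraries at 0 h above all others. On TPM, 3D at 0 h replicate 3 was the highest, with 925 TPM against 911 TPM in the highest 2D library at 0 h. The log2 fold change for 3D against 2D was -0.13 at 0 h (95% confidence interval -0.30 to 0.04, edgeR adjusted p = 0.21). This did not pass the threshold although the groups did not overlap in CPM. At 24 h it was -0.45 ± 0.08 (adjusted p = 0.00026), and within spheroids Hsp90ab1 fell by 0.57 ± 0.08 over time (adjusted p = 2.3e-05).

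In 2D, Hsp90ab1 fell by 0.25 ± 0.08 over time (edgeR adjusted p = 0.027). This call was lost under 8 of 10 other settings, among them limma on TPM (-0.05, adjusted p = 0.62), and without replicate 1 of 2D at 0 h or replicate 2 or 3 of 2D at 24 h (adjusted p from 0.095 to 0.12). The difference between the culture changes at 24 h and 0 h was -0.32 ± 0.12 (adjusted p = 0.036), and it was lost without any 1 of 10 libraries (adjusted p from 0.054 to 0.11) and with no count filter (0.12), the library exceptions being replicate 2 of 2D at 0 h and replicate 2 of 3D at 24 h.

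Hsp90aa1 (ENSMUSG00000021270), the stress-inducible form, was also lower in spheroids at 24 h. It stood at 494, 717 and 390.2 CPM in 2D and at 417, 378 and 429 CPM in 3D at 0 h. The 24 h libraries gave 600.0, 565 and 628 CPM in 2D and 334, 328 and 278 CPM in 3D. The 2D libraries at 0 h spread more widely than any other group and overlapped the 2D libraries at 24 h and the 3D libraries at 0 h, while the 3D libraries at 24 h were below all others. The log2 fold change for 3D against 2D was -0.93 ± 0.16 at 24 h (edgeR adjusted p = 0.00014), or 1.91-fold lower, and -0.39 at 0 h (95% confidence interval -0.72 to -0.06, adjusted p = 0.054). Over time it was 0.16 in 2D (-0.17 to 0.50, adjusted p = 0.45) and -0.38 in 3D (-0.71 to -0.05, adjusted p = 0.055).

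Hsp90aa1 gained calls when single libraries were left out. Without replicate 3 of 2D at 0 h, the lowest of that group, it was called lower in 3D at 0 h (-0.53, adjusted p = 0.0049), as it was without replicate 1 or 3 of 3D at 24 h (adjusted p = 0.036 and 0.047). Without replicate 2, the highest, it was called higher at 24 h in 2D (0.43, adjusted p = 0.0099), lower at 24 h in 3D (-0.38, adjusted p = 0.0066) and different between the culture changes (-0.81, adjusted p = 0.00067, against -0.54 and 0.062 with all libraries). The fall in 3D was also called without replicate 3 of 2D at 0 h (-0.35, adjusted p = 0.028). With all libraries, other settings called it too. The lower level in 3D at 0 h was called with no count filter (adjusted p = 0.0097) and DESeq2 (0.046), and the fall over time in 3D with no count filter (0.0047), with only the groups compared (0.0068) and with DESeq2 (0.045). The difference between the culture changes was called with no count filter (adjusted p = 0.0044), upper-quartile scaling (0.042) and DESeq2 (0.0497).

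The HSP90 ratio showed no such separation as the HSP70 ratio. The mean log2 ratio of Hsp90aa1 to Hsp90ab1, on TPM, was -0.61 ± 0.44 (SD, n = 3) at 0 h and -0.34 ± 0.08 at 24 h in 2D. In 3D it was -0.86 ± 0.09 at 0 h and -0.61 ± 0.10 at 24 h. At 24 h it was lower in 3D by 0.28 with no overlap, and in 3D it was higher at 24 h than at 0 h by 0.25 with no overlap. Both comparisons gave the smallest exact permutation p of 0.1 (0.13 adjusted over the 8 ratio tests), and the other 2, with overlap, gave 0.5 and 0.4. The number of counts that 1 TPM of Hsp90aa1 stands for, relative to Hsp90ab1, ranged from 0.521 to 0.677 over the libraries, so the transcript length behind its values was not the same in each, and with counts in place of TPM the culture difference at 24 h was -0.49. On counts the time difference in 3D was 0.18, and the groups overlapped.

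Hspb1 (ENSMUSG00000004951), a small heat shock protein that holds unfolded proteins without ATP and binds actin, was lower in spheroids and fell with time in each culture. It stood at 578, 508 and 474 CPM in 2D and at 312, 303 and 276 CPM in 3D at 0 h. At 24 h the values were 394, 291 and 313 CPM in 2D and 109, 156 and 135 CPM in 3D. The 2D libraries at 0 h were the highest and the 3D libraries at 24 h the lowest, with no overlap with any other group, while 2D at 24 h and 3D at 0 h overlapped each other.

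For 3D against 2D, the log2 fold change of Hspb1 was -0.81 ± 0.14 at 0 h (edgeR adjusted p = 0.00012) and -1.32 ± 0.14 at 24 h (adjusted p = 6.4e-07), or 1.75-fold and 2.50-fold lower. Hspb1 fell by 0.64 ± 0.14 in 2D (adjusted p = 0.0018) and fell by 1.16 ± 0.14 in 3D (adjusted p = 3.0e-06), and these 4 calls held under every alternative run. The difference between the culture changes was -0.51 ± 0.19 (adjusted p = 0.043) and was lost without any 1 of 9 libraries (adjusted p from 0.051 to 0.16), the exceptions being replicate 2 of 2D at 24 h, replicate 3 of 3D at 0 h and replicate 2 of 3D at 24 h. The counts of Hspb1 were not whole in any of the 12 libraries, as for Hspa8 and Hsp90aa1, which happens where reads fit several genes, whereas those of Hsp90ab1, Dnajb1 and Hsph1 were whole in all.

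A change with time in the culture difference was called for 5 of the 8, positive for 1 and negative for 4. Of all genes tested, 18.7% were called positive and 20.5% negative. The change from 0 h to 24 h was -1.87 ± 0.25 for Hspa1a (edgeR adjusted p = 1.3e-05) and -0.91 ± 0.18 for Hspa1b (adjusted p = 0.00054), beside the values of Hspa8, Hsp90ab1 and Hspb1 given above. For Dnajb1 it was 0.15 (95% confidence interval -0.18 to 0.49, adjusted p = 0.48), and Hsph1 had a like value, so for these helpers a change with time in the culture difference was not detected. For Hspa1a, Hspa1b and Hspa8 it was called under every alternative run, which was not so for Hsp90ab1 and Hspb1.

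Across the 12 libraries, Hspb1 and Hsp90ab1 were the most alike pair of the 8, with a Pearson correlation of log2 CPM of 0.96 and a Spearman correlation of 0.83. Among the 9161 genes that averaged 10 CPM or more, Hspb1 ranked 23 by likeness to Hsp90ab1. Dnajb1 and Hsph1 were the most opposed pair (Pearson -0.91, Spearman -0.93). The near-identical copies Hspa1a and Hspa1b had a Pearson correlation of 0.61 and a Spearman correlation of 0.45, and Hspa1b ranked 1572 by likeness to Hspa1a. These values rest on the uncertain split of reads between the copies. Hspa8 had Pearson correlations with the other members between -0.31 for Hspa1a and 0.54 for Hsph1. Each gene had a still closer match outside the 8, with correlations of 0.958 to 0.995. That of Hspb1 was ENSMUSG00000024048 (0.995) and that of Hspa8 was ENSMUSG00000039483 (0.994), whose names were not used here. From 27 genes for Hsp90aa1 to 334 for Hspa8 had a correlation over 0.9. The libraries fall into 4 groups, and those of a group share culture and time, so the 12 points are not independent and the correlations carry no p.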

How the data were processed

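Samples were grouped by culture and time from the labels. Per the submitters' processing notes, the tools were STAR, RSEM and FastQC 0.11.9 and the build was GRCm39; settings and other versions were not given in the sources used here. For each gene the authors deposited an expected count, an estimate that splits ambiguous reads between genes, and a log2(TPM + 1) value. The column names give day 0 and day 1, read here as 0 h and 24 h. Library totals of 10182600 to 17109600 set the precision, and normalised CPM carry the same depth.

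After rounding to whole numbers, the expected counts were fitted in R 4.3.3 with edgeR 4.0.16: expression filter with a minimum count of 10, TMM scaling, a quasi-likelihood model of all 12 libraries with 1 term per group (8 residual degrees of freedom), and Benjamini-Hochberg adjustment over 14338 genes. Hspa1a and Hspa1b were also summed before the fit. Ratios were taken on TPM, from the deposited log2 values, and compared by two-sided exact permutation tests. Only the edgeR fit was tried on simulated counts with known fold changes, drawn with the spread that the same fit estimated from these data. Alternatives were other scalings, filters, DESeq2 1.42.0, limma 3.58.1 on log2(TPM + 1) and log2(TPM + 0.1), only the groups compared, a replicate block and leaving out each library.

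The members and lists were chosen with earlier results of these data known. The rule for named genes took all 8 members and, for each, the gene outside the 8 with the highest correlation of log2 CPM. The tables used here do not pair the other gene IDs with names, so the lists of chaperones, heat shock factors, immediate early genes and cell type markers were not analysed here. Promoter windows are RefSeq's for GRCm38.p6, matched by symbol for 5 of 8 genes.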

Additional observations from a re-analysis of the deposited data

Results flagged for a closer look

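In edgeR's test of the difference itself, a change in the culture difference between 0 h and 24 h was called for 5 of the 8 genes. Of all genes tested, 18.7% had a positive call and 20.5% a negative one. The summed inducible HSP70 pair was called too. The change in the log2 fold change of 3D against 2D was -1.87 for Hspa1a and -0.91 for Hspa1b. Hspa1b was lower in spheroids at both times, and Hspa1a was called higher at 0 h and lower at 24 h. The higher Hspa1a at 0 h was called in 15 of 22 alternatives, and the split of reads between the copies is uncertain. The change was -1.19 for Hspa1a and Hspa1b summed, and this sum was lower in spheroids at both times. It was 1.17 for Hspa8, whose lower level at 0 h was no longer seen at 24 h. It was -0.32 for Hsp90ab1 and -0.51 for Hspb1, both of which lost the call when most single libraries were left out.

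The log2 ratio of inducible to constitutive HSP70 moved in opposite directions by time and by culture, with every library on its side, but the difference between these moves was not tested. It was higher in 3D than in 2D at 0 h by 0.50, and the difference at 24 h was -1.90. Between 0 h and 24 h it went up by 0.48 in 2D, and the difference in 3D was -1.91. Groups of 3 libraries are too small for a check of single outlying values.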

How the results depend on the processing

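Of the 23 calls of the 8 genes in the 4 comparisons of 2 groups, 16 held under every alternative, and of the 9 that were not called, 5 stayed so under each. Library totals and upper-quartile scaling each called 1 gene higher in 3D at 24 h (Dnajb1) and turned Hspa8 there to 0.0745 and 0.0134. Leaving out 1 library gave 0 to 1 higher calls at 24 h and at 0 h, 1 to 2 higher calls over time in 2D, and 2 to 4 negative calls of the difference. Limma on log2(TPM + 1), on log2(TPM + 0.1) and over all genes above 0 called 1, 2 and 1 genes lower over time in 2D, where it called 1257, 1228 and 980 of all genes lower against 2441, and gave Hspa1a there as 0.14, 0.15 and 0.14. At 0 h, 0 genes were called higher by limma over all genes, which called 1980 of all genes lower against 3255, and 0 with only the groups compared. Without 1 library, Hspa8 at 24 h ranged from -0.0771 to 0.0376, Dnajb1 at 0 h from -0.0176 to 0.18, and over time in 2D Hspa1a from -0.24 to 0.15, Hspa1b from -0.0409 to 0.20, their sum from -0.0569 to 0.19 and Hsp90aa1 from -0.00073 to 0.43. With counts in place of TPM, the HSP90 ratio at 24 h differed by -0.49. The cause of these shifts was not tested.

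The split of all genes called higher and lower moved from 3309 and 3255 to 4025 and 2610 with upper-quartile scaling and 3641 and 2229 with limma at 0 h, from 2815 and 3276 to 3648 and 2708 with library totals at 24 h, and from 2489 and 2441 to 2891 and 1257 with limma over time in 2D. The median log2 fold change of all genes was 0.12 at both times with library totals and 0.14 at 0 h with upper-quartile scaling. Expression gave no sign that replicate numbers pair the libraries: 1 of 18 correlations of same-numbered libraries was over 0.1, and 9 of 36 best matches shared a number. This cannot tell whether libraries of the same number shared a culture or preparation. With the replicate block, 2 genes had a negative call of the difference, with Hsp90ab1 and Hspb1 lost (adjusted p = 0.065 and 0.066), Hsp90ab1 was lost over time in 2D (0.052), and no other call of the 8 changed.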
